A study of Homo sapiens with 18 samples.

Results

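The 37 genes described here encode the folding machinery of the endoplasmic reticulum (ER) and the unfolded protein response, the programme that adjusts this machinery to its load. They were chosen by name from 26668 genes in the table by a list that sets no threshold on a measured value but was drawn up with earlier results of these data known, and they comprise 4 sensors and transcription factors, 5 chaperones, 7 co-chaperones and secreted factors, 4 protein disulfide isomerases, 10 genes of ER-associated degradation (ERAD), 4 translocon genes, 2 COPII coat genes and the ER membrane protein gene WFS1. RNA was sequenced in the established human pancreatic cancer lines MIA PaCa-2, PANC-1 and PaTu 8988T. Each line gave 3 control libraries, titled shControl and labelled wild type with no treatment, and 3 libraries with knockdown of OFD1, a protein of centrioles and centriolar satellites, labelled shOFD1. The study's methods describe cells with a doxycycline-inducible OFD1 shRNA that received DMSO or doxycycline. Per the labels, collection followed induction by 72 h. The titles name a control shRNA instead, and the series text gives day 0 and day 3, so it is not settled whether controls were uninduced shOFD1 cells or a separate control-shRNA population, and effects of doxycycline or time in culture cannot be told apart from the knockdown. In PaTu 8988T, the source labels of replicates 2 and 3 carry other numbers, PaTu 8989T and PaTu 8990T, and the titles were followed. Nothing states that replicates were separate cultures, so the p-values measure the spread between these libraries. The comparison asked whether a stress response after OFD1 knockdown reaches the ER beyond the genes of the transcription factor ATF4.

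Proteins that enter the secretory pathway fold in the ER with the help of chaperones such as BiP and of oxidoreductases that form disulfide bonds. When unfolded proteins accumulate, 3 ER membrane sensors respond. IRE1α (gene ERN1) splices the mRNA of the transcription factor XBP1, ATF6 is cleaved to release a transcription factor that acts with XBP1 on chaperone and ERAD genes, and PERK (gene EIF2AK3) phosphorylates eIF2α, which lowers translation and favours ATF4. ATF4 is also induced by eIF2α kinases that respond to amino acid shortage and other stresses, so ATF4 targets can rise without the other 2 arms. The exocrine pancreas, a tissue built for secretion, depends on this system.

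Values are FPKM, a read count divided by gene length and library size, and were compared only within a line. "Rose" and "fell" mark a Benjamini-Hochberg adjusted p below 0.05 in limma on log2(FPKM + 0.1), so every fold change is on that scale, and log2 fold changes (log2FC) are knockdown minus control. The 18 libraries held 32246761 to 39522270 counted reads as recovered from the FPKM steps. OFD1 itself measured 5.50, 5.12 and 5.67 FPKM in PANC-1 controls and 2.80, 2.27 and 2.58 in knockdown. It measured 3.09, 2.27 and 3.20 against 1.76, 1.74 and 1.97 in MIA PaCa-2, and 2.14, 1.93 and 2.12 against 0.986, 0.894 and 0.854 in PaTu 8988T. OFD1 was thus lower in every knockdown library, with log2FC of -1.07, -0.61 and -1.10 in these lines. Control replicate 2 of MIA PaCa-2 stood apart: its genes deviated from the other 2 controls by a median of 0.393 log2 units, against 0.0510 to 0.0930 within the other groups. MIA PaCa-2 results include it unless stated, and counts and part of the members are also given without it. Single markers, other ER genes and ATF4 axis genes are given only with it. Of the cell type markers, KRT8, KRT18 and VIM were high in every library, KRT19 was at most 0.0194 FPKM in PaTu 8988T, and CDH1 and EPCAM stayed below 0.1 FPKM in MIA PaCa-2. The endothelial and fibroblast markers PECAM1 and DCN were at most 0.0806 FPKM anywhere, while COL1A1 reached 22 to 26.6 in PANC-1 and PTPRC 2.32 to 6.22 in MIA PaCa-2. Several markers moved with the knockdown: VIM fell in PANC-1 (log2FC -0.82) and PaTu 8988T (-0.40) and rose in MIA PaCa-2 (0.48), KRT19 (-0.997) and COL1A1 (-0.23) fell while EPCAM (0.49) and CDH1 (0.32) rose in PANC-1, PTPRC rose in MIA PaCa-2 (0.81, control replicate 2 included), and KRT8 rose in PANC-1 (0.26) and fell in MIA PaCa-2 (-0.75) and PaTu 8988T (-0.27). KRT18 fell in PANC-1 (-0.06) and PaTu 8988T (-0.27). The part of these marker changes in the results was not tested.

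After OFD1 knockdown most of the 9 ER chaperones and disulfide isomerases, a group joined after their values were seen, fell. Those called numbered 9 in PANC-1, 6 in MIA PaCa-2 and 8 in PaTu 8988T, where 32.2%, 21.7% and 18.5% of all genes fell. ATF6 fell and XBP1 and HERPUD1 rose in each of the 3 lines. In PANC-1, 21 of the 36 members tested fell and 8 rose (5 rose with median-ratio scaling), where 32.2% and 40.1% of all 10902 genes tested fell and rose. In MIA PaCa-2, 14 of 35 members fell and 5 rose, against 21.7% and 18.7% of 10758 genes. Once control replicate 2 was left out 23 members fell, but 40% of all genes then fell too. Without any single knockdown replicate 9 members fell, where 12.2% to 12.5% of all genes fell. In PaTu 8988T, 13 of 34 fell and 8 rose, against 18.5% and 20.9% of 10698 genes. The members that fell thus made up 58.3%, 40.0% and 38.2% of those tested, a larger share than among all genes in each line, and those that rose made up 22.2%, 14.3% and 23.5%. Most changes were small. At the study's 2-fold threshold 4 members fell in PANC-1 (ATF6, EDEM1, PDIA4 and CALR; 4.84% of all genes fell that far), 2 fell in MIA PaCa-2 (CALR and CRELD2; 3.68%) and none in PaTu 8988T (0.841%). DNAJB9 in MIA PaCa-2 was the one member that rose past 2-fold, where 4.07% of all genes did; no member did so in PANC-1 or PaTu 8988T, where 1.75% and 0.159% of all genes did. The median log2FC of the members tested was -0.27 in PANC-1, -0.24 in MIA PaCa-2 and -0.03 in PaTu 8988T, beside 0.06, -0.03 and 0.03 for all genes tested.

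**Figure D1:**
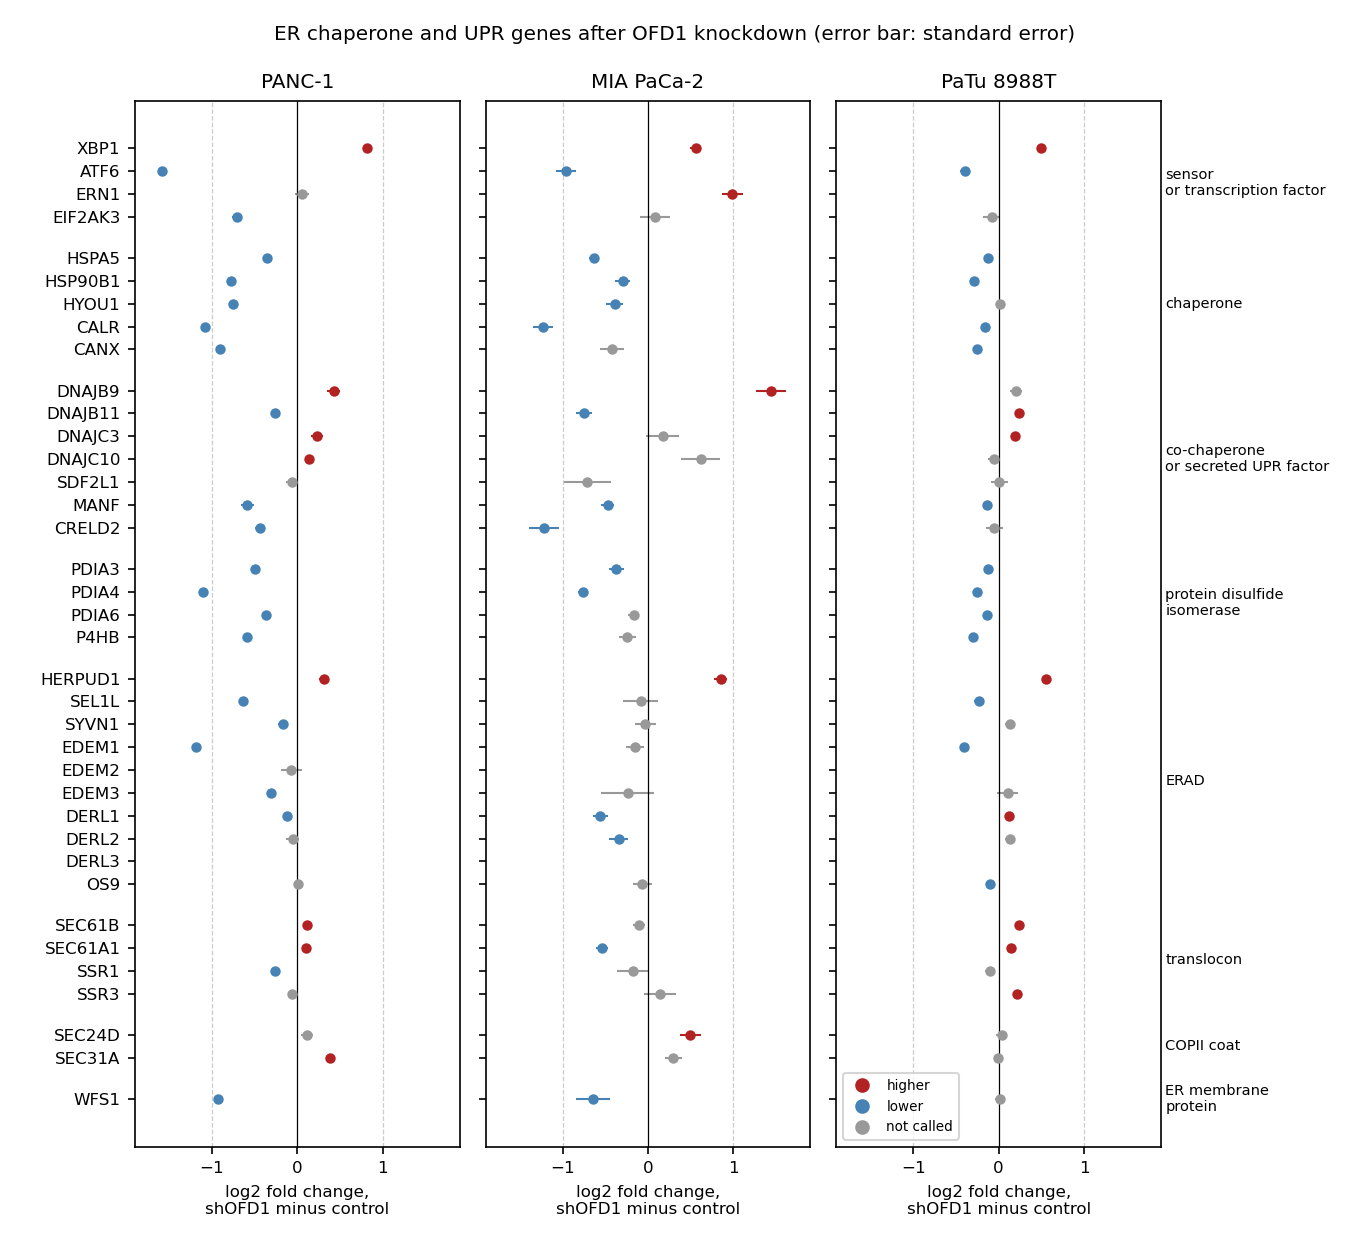
Log2 fold change (shOFD1 minus control, on log2(FPKM + 0.1)) of each of the 37 members in each line, by role; bars are limma standard errors, red and blue mark members that rose and fell, grey those that did not pass, and dashed lines mark 2-fold. The 9 chaperones and disulfide isomerases lie left of 0 in PANC-1 and MIA PaCa-2, and all but HYOU1 do in PaTu 8988T; DERL3 has no point in any line, and ERN1 and EDEM2 are missing where they were too low to test.

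Of the 34 members tested in all 3 lines, 7 fell in each: HSPA5, HSP90B1, CALR, PDIA3, PDIA4, MANF and ATF6. Another 2, XBP1 and HERPUD1, rose in each. Among 9083 genes tested in all lines, 3.71% fell in each and 2.74% rose in each. HSPA5, CALR, PDIA4 and ATF6 passed in all 3 lines under each of the 13 alternative settings tried per line, as did XBP1 and HERPUD1, whereas HSP90B1, PDIA3 and MANF did not. Another 3 members, singled out after their values were seen, were called in opposite directions in different lines. DNAJB11 and DERL1 fell in PANC-1 and MIA PaCa-2 and rose in PaTu 8988T, and SEC61A1 fell in MIA PaCa-2 and rose in the other two. Opposite calls were made for 17% of all genes. SDF2L1 was the only one of the 34 called in none of the lines.

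The DNA elements through which ATF6 and XBP1 are known to act were looked up in the promoters of these genes. RefSeq promoter windows (GRCh38.p14, 250 bases before to 50 after each start) matched 33 of the 37 members; DERL1, DERL3, PDIA3 and SEC24D had none. The ER stress element ERSE, with CCAAT and CCACG set 9 bases apart and searched on both strands, was found in 0.0769% of 35093 windows, or 25 genes, of which 7 were members. They are printed here in the gene's orientation with the element in capitals, because they set the falling chaperone genes beside XBP1, which rose with the same letters.

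HSPA5 (chr9:125241385-125241414, minus strand): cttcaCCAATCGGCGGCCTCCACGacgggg
HSP90B1, farther from the start (chr12:103930211-103930240, plus strand): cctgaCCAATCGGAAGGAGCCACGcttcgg
HSP90B1, nearer to the start (chr12:103930316-103930345, plus strand): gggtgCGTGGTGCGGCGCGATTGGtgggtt
CALR (chr19:12938379-12938408, plus strand): ccacgCGTGGTCGACCATCATTGGtcggtg
CANX (chr5:179698773-179698802, plus strand): cccggCCAATCTTCACACTCCACGaagaat
PDIA6 (chr2:10812847-10812876, minus strand): ccggaCCAATGAGCCGCAGCCACGgcttgg
CRELD2 (chr22:49918549-49918578, plus strand): cctctCGTGGCGAACTCGGATTGGgccata
XBP1 (chr22:28800597-28800626, minus strand): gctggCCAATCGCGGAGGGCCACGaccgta

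Of these 7 genes, the 6 other than XBP1 fell in PANC-1, 4 fell in MIA PaCa-2 (CANX and PDIA6 did not pass) and 5 fell in PaTu 8988T (CRELD2 did not pass), while XBP1 rose in all 3 lines. Of all members tested 58.3%, 40.0% and 38.2% fell in these lines, and of all genes 32.2%, 21.7% and 18.5%. Without control replicate 2 of MIA PaCa-2, where 40% of all genes fell, CANX (log2FC -0.59) and PDIA6 (-0.13) passed too. The second form, ERSE-II, with ATTGG and CCACG set 1 base apart, was found in 0.0541% of windows, or 19 genes, of which 3 were members. HERPUD1 rose in every line, HYOU1 fell in PANC-1 and MIA PaCa-2, and SDF2L1 was not called. The 3 are shown because the same letters stood before genes with different responses.

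HERPUD1 (chr16:56932016-56932045, plus strand): cggacgccgATTGGGCCACGttgggagagt
HYOU1, farther from the start (chr11:119057370-119057399, minus strand): gccccgtgaCGTGGTCCAATcccaggccga
HYOU1, nearer to the start (chr11:119057264-119057293, minus strand): ggcctgggaCGTGGTCCAATgagtacgcgc
SDF2L1 (chr22:21642105-21642134, plus strand): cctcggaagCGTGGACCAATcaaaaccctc

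Among the members, HERPUD1 alone also held the element bound by ATF4 with C/EBP factors (CARE, spelled TGATGNAA), which was in 3.62% of windows and in 7 of the 24 ATF4 axis genes with a window. A match in 1 of 33 members with a window is no excess beside 1217 of 27305 genes. Of the ATF4 axis genes with a match, SLC3A2 fell in PANC-1 (log2FC -0.10), did not pass in MIA PaCa-2 (-0.12) and rose in PaTu 8988T (0.50). The others rose in each line where they were tested. The HERPUD1 copy is shown beside that in CHAC1, an ATF4 target that rose in all 3 lines.

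HERPUD1 (chr16:56931955-56931984, plus strand): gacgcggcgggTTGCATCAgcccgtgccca
CHAC1 (chr15:40953251-40953280, plus strand): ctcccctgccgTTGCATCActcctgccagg

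The element UPRE, spelled TGACGTGG, was in 0.729% of windows, or 253 of 27305 genes. Of the 33 members with a window, 3 held it: DNAJC10, SSR3 and HYOU1, where it overlaps the ERSE-II farther from the start. The core ACGTGG, which every UPRE contains, was in 9.73% of windows, or 3175 of 27305 genes, and in 14 of the 33 members. A match to these letters is a description of the sequence and no evidence of binding, and the elements were chosen after the changes were known.

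The transcription factors and sensors moved apart. XBP1 (chr22:28794555-28800597, minus strand) encodes the transcription factor made active by IRE1α. It measured 54.5, 53.0 and 56.4 FPKM in PANC-1 controls and 97.0, 97.4 and 95.0 in knockdown. In MIA PaCa-2 it measured 37.5, 38.0 and 37.0 against 54.0, 55.4 and 56.6, and in PaTu 8988T 23.6, 25 and 23.9 against 33.1, 34.1 and 35.1. Every knockdown library was above every control of its line, in MIA PaCa-2 control replicate 2 included. The log2FC was 0.82 (SE 0.03, adjusted p = 6.0e-09), 0.56 (SE 0.06, adjusted p = 0.00109) and 0.49 (SE 0.04, adjusted p = 3.09e-05). These are gene totals, which do not separate spliced from unspliced XBP1 mRNA.

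ATF6 (chr1:161766294-161964070, plus strand), the sensor that is itself cleaved into a transcription factor, fell furthest of all members in PANC-1. It measured 14.4, 14.6 and 15 FPKM in PANC-1 controls and 4.83, 4.76 and 4.90 in knockdown. It measured 10.8, 8.54 and 10.6 against 5.16, 5.08 and 4.96 in MIA PaCa-2. PaTu 8988T libraries measured 7.97, 7.87 and 7.78 against 6.39, 5.72 and 5.84. No groups overlapped, and the log2FC was -1.58 (SE 0.05, adjusted p = 2.27e-09), -0.96 (SE 0.12, adjusted p = 0.0014) and -0.39 (SE 0.06, adjusted p = 0.000866). Without control replicate 2, the MIA PaCa-2 value was -1.07.

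ERN1 and EIF2AK3, the genes of IRE1α and PERK, each passed in 1 line. ERN1 measured 1.02, 0.985 and 1.16 FPKM in MIA PaCa-2 controls and 2.24, 2.30 and 2.02 in knockdown, a log2FC of 0.99 (SE 0.12, adjusted p = 0.00154). In PANC-1 the ERN1 groups overlapped, with 2.76, 2.69 and 2.58 against 2.72, 2.94 and 2.71 and an adjusted p of 0.542. In PaTu 8988T ERN1 measured 0.541, 0.575 and 0.582 in controls and 0.477, 0.425 and 0.442 in knockdown, below the 1 FPKM needed for a test. EIF2AK3 fell in PANC-1, from 7.01, 6.67 and 6.81 FPKM to 4.18, 4.05 and 4.18, a log2FC of -0.71 (SE 0.06, adjusted p = 2.48e-06). Its groups overlapped in MIA PaCa-2, at 4.56, 3.17 and 4.55 against 4.47, 4.65 and 3.79, and in PaTu 8988T, at 2.96, 3.43 and 3.01 against 3.15, 3.15 and 2.59. The adjusted p was 0.724 and 0.534 there, and in MIA PaCa-2 the log2FC was 0.08 with and -0.09 without control replicate 2.

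The 5 chaperones and 4 disulfide isomerases, joined after their values were seen, are described together. All 9 fell in PANC-1, 6 fell in MIA PaCa-2 and 8 in PaTu 8988T, with median log2FC of -0.75, -0.39 and -0.16. In MIA PaCa-2, CANX, PDIA6 and P4HB missed the threshold, yet in all 9 genes the highest knockdown library lay below the lowest control, as was so for 31.3% of all genes in that line. All 9 passed as lower when control replicate 2 was left out, where 40% of all genes fell. The same separation held for 9 genes in PANC-1 and 8 in PaTu 8988T, where 33.4% and 24% of all genes showed it. These are abundant transcripts, and among genes of at least 50 FPKM, a background chosen after the data were seen, 40.2%, 30.3% and 17.7% fell in PANC-1, MIA PaCa-2 and PaTu 8988T.

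HSPA5 (chr9:125234853-125241330, minus strand) encodes BiP, the central HSP70 chaperone of the ER, whose mRNA is a standard readout of the unfolded protein response. It measured 192, 196 and 197 FPKM in PANC-1 controls and 149, 154 and 153 in knockdown. It measured 171, 167 and 168 against 108, 111 and 107 in MIA PaCa-2, and 150, 149 and 151 against 139, 137 and 137 in PaTu 8988T. Each knockdown library lay below all controls, and the unusual MIA PaCa-2 control lay close to its fellows here. The log2FC was -0.36 (SE 0.02, adjusted p = 2.48e-07), -0.64 (SE 0.06, adjusted p = 0.000454) and -0.13 (SE 0.03, adjusted p = 0.0108).

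**Figure D2:**
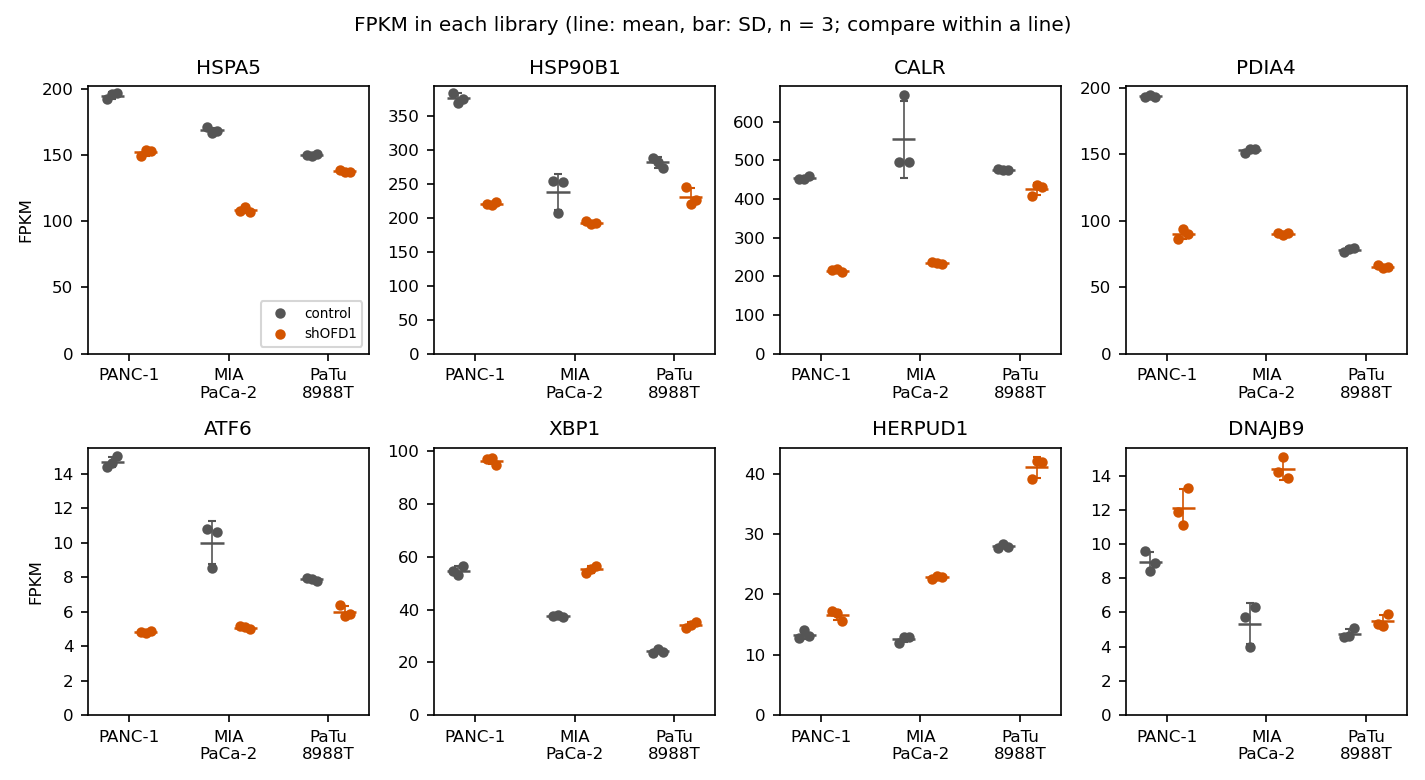
FPKM of 8 members in each library, by line and condition; points are libraries, horizontal lines are means and vertical bars are SDs over 3 libraries, and levels are to be compared within a line. HSPA5, HSP90B1, CALR, PDIA4 and ATF6 lie lower in knockdown than in control libraries of each line, and XBP1, HERPUD1 and DNAJB9 lie higher; control replicate 2 of MIA PaCa-2 departs from its fellows for CALR (670 FPKM) and HSP90B1 (207 FPKM).

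HSP90B1 (chr12:103930107-103953645, plus strand) encodes GRP94, the HSP90 chaperone of the ER. In PANC-1 it measured 385, 370 and 376 FPKM in controls and 221, 219 and 223 in knockdown. In MIA PaCa-2 the controls measured 255, 207 and 253 and the knockdown libraries 195, 191 and 193. PaTu 8988T libraries measured 289, 283 and 274 against 246, 221 and 226. The groups did not overlap in any line, and the log2FC was -0.77 (SE 0.02, adjusted p = 8.6e-10), -0.30 (SE 0.09, adjusted p = 0.0408) and -0.29 (SE 0.05, adjusted p = 0.0011). The MIA PaCa-2 call was near the threshold: it was lost without any other single library of that line (adjusted p 0.113 to 0.129) and was firm without control replicate 2 (-0.40, adjusted p = 2.83e-07).

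CALR (chr19:12938578-12944489, plus strand) encodes calreticulin, the soluble lectin chaperone of glycoproteins. It measured 453, 452 and 459 FPKM in PANC-1 controls and 216, 218 and 211 in knockdown. In MIA PaCa-2 it measured 497, 670 and 497 against 236, 235 and 232, and in PaTu 8988T 478, 475 and 476 against 409, 437 and 432. CALR fell in all lines without overlap, and further in PANC-1 and MIA PaCa-2 than in PaTu 8988T, with log2FC of -1.08 (SE 0.02), -1.23 (SE 0.12) and -0.16 (SE 0.04). The adjusted p was 7.53e-11, 0.000668 and 0.00614, and without control replicate 2 the MIA PaCa-2 log2FC was -1.08.

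The remaining chaperones were less even across lines. CANX, the membrane-bound partner of calreticulin, fell in PANC-1 (log2FC -0.91) and PaTu 8988T (-0.25). In MIA PaCa-2 its controls measured 158, 111 and 160 FPKM and its knockdown libraries 105, 107 and 105, so that control replicate 2 lay next to the knockdown libraries. The MIA PaCa-2 log2FC of CANX was -0.42 with an adjusted p of 0.0542, and -0.59 with an adjusted p of 6.18e-08 without that control. HYOU1, which encodes GRP170, a nucleotide exchange factor of BiP, fell in PANC-1 (-0.75) and MIA PaCa-2 (-0.39, and -0.30 without control replicate 2). Leaving out any 1 knockdown library ended the MIA PaCa-2 call of HYOU1, with adjusted p of 0.0627 to 0.0758. In PaTu 8988T HYOU1 measured 34.4, 35.6 and 34.5 FPKM in controls and 34.8, 35.4 and 35 in knockdown (log2FC 0.01, SE 0.04), so that no difference was detectable there.

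The disulfide isomerases, which form and rearrange disulfide bonds in ER clients, were below control in each line. PDIA4 (chr7:149003062-149028641, minus strand) measured 193, 195 and 193 FPKM in PANC-1 controls and 86.3, 94.0 and 89.8 in knockdown. It measured 151, 154 and 154 against 90.6, 89.0 and 90.9 in MIA PaCa-2, and 76.4, 79.1 and 79.3 against 66.5, 64.7 and 65.3 in PaTu 8988T. PDIA4 thus fell in all lines without overlap, with log2FC of -1.11 (SE 0.03, adjusted p = 1.17e-09), -0.76 (SE 0.06, adjusted p = 0.000264) and -0.26 (SE 0.03, adjusted p = 0.000457).

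P4HB, the abundant isomerase PDI, measured 386, 392 and 384 FPKM in PANC-1 controls and 259, 264 and 250 in knockdown (log2FC -0.59, adjusted p = 8.93e-09). In PaTu 8988T it measured 194, 191 and 194 against 149, 162 and 158 (-0.30, adjusted p = 0.000366). Its MIA PaCa-2 libraries held 304, 381 and 303 against 282, 275 and 273 FPKM, and P4HB did not pass (-0.24, adjusted p = 0.0887) unless control replicate 2 was left out (-0.13, adjusted p = 0.000346). PDIA3, the isomerase that works with calreticulin and calnexin, fell in the 3 lines by 0.49, 0.37 and 0.13 on the log2 scale. The call of PDIA3 in MIA PaCa-2 was lost without any single library but control replicate 2 (adjusted p 0.0578 to 0.0802), and that in PaTu 8988T without control replicate 2 (adjusted p = 0.0587). PDIA6 fell in PANC-1 (-0.37) and PaTu 8988T (-0.14, lost without control replicate 1 at an adjusted p of 0.0584) and did not pass in MIA PaCa-2 (-0.17, adjusted p = 0.0732; -0.13 and 0.00118 without control replicate 2). Exons on the opposite strand cover 25.2% of PDIA6 (ATP6V1C2) and 14.8% of PDIA3 (ELL3) in GENCODE v29, and the sources do not state whether counting used strand.

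The co-chaperones and secreted factors split. DNAJB9 (chr7:108569568-108574850, plus strand) encodes ERdj4, a BiP co-chaperone that is induced by XBP1 and holds IRE1α inactive. It measured 9.60, 8.41 and 8.89 FPKM in PANC-1 controls and 11.9, 11.1 and 13.3 in knockdown. In MIA PaCa-2 it measured 5.74, 3.98 and 6.30 against 14.2, 15.1 and 13.9, and in PaTu 8988T 4.56, 4.60 and 5.10 against 5.33, 5.21 and 5.93. Knockdown libraries were above all controls in each line. The log2FC was 0.42 (SE 0.07, adjusted p = 0.000486), 1.44 (SE 0.17, adjusted p = 0.00134) and 0.20 (SE 0.07, adjusted p = 0.0509), so DNAJB9 rose in PANC-1 and MIA PaCa-2 and missed the threshold in PaTu 8988T. It passed there without control replicate 3 (0.25, adjusted p = 0.0409) or knockdown replicate 2 (0.24, adjusted p = 0.0327), and without control replicate 2 the MIA PaCa-2 value was 1.25.

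CRELD2, a secreted disulfide isomerase-like factor of the response, fell in PANC-1 and MIA PaCa-2. It measured 30.5, 30.3 and 28.7 FPKM against 20.5, 23.7 and 21.9 in PANC-1 (log2FC -0.44, adjusted p = 3.98e-05). In MIA PaCa-2 it measured 13.0, 20.2 and 13.8 against 6.81, 6.58 and 6.24 (-1.22, adjusted p = 0.00248; -1.02 without control replicate 2). In PaTu 8988T the groups overlapped, at 4.03, 4 and 4.73 against 3.98, 4.68 and 3.67 (-0.05, adjusted p = 0.714). MANF, a secreted factor kept in the ER by BiP, fell in all lines (-0.59, -0.47 and -0.13). In PaTu 8988T the call of MANF was lost without control replicate 1, control replicate 2 or knockdown replicate 1 (adjusted p 0.0551 to 0.104).

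SDF2L1, which assists BiP co-chaperones and is usually among the most responsive genes to ER stress, gave no call. It measured 20.7, 17.6 and 20.4 FPKM against 18.4, 20.6 and 17.3 in PANC-1, and 10.1, 10.1 and 10.1 against 8.34, 11.1 and 11.3 in PaTu 8988T, where it passed as higher without knockdown replicate 1 (0.15, adjusted p = 0.0413). In MIA PaCa-2 the controls measured 16.9, 33.4 and 15.6 and the knockdown libraries 12.8, 12.3 and 12.7. The MIA PaCa-2 log2FC was -0.71 (SE 0.28, adjusted p = 0.0815), and SDF2L1 passed as lower without control replicate 2 (-0.37, adjusted p = 0.000126) or control replicate 3 (-0.91, adjusted p = 0.0482).

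The 3 other J-domain genes, which hand substrates to BiP, behaved differently from one another. DNAJB11 measured 78.7, 83.0 and 80.2 FPKM against 68.4, 64.5 and 68.3 in PANC-1 and 71.3, 62.5 and 78.2 against 40.8, 43.1 and 41.7 in MIA PaCa-2. It measured 50.2, 51.0 and 46.5 against 60.4, 57.3 and 56.0 in PaTu 8988T. DNAJB11 thus fell in the first 2 lines (log2FC -0.27 and -0.75) and rose in PaTu 8988T (0.23, adjusted p = 0.00382), without overlap in any line. DNAJC3, known as P58IPK, rose in PANC-1 (0.23, lost without knockdown replicate 3 at an adjusted p of 0.0535) and PaTu 8988T (0.19) and did not pass in MIA PaCa-2 (0.17). DNAJC10, the reductase ERdj5, rose in PANC-1 (0.14, lost without control replicate 2 at an adjusted p of 0.0619 and under median-ratio scaling at 0.104). In MIA PaCa-2 it passed only without control replicate 2 (0.35), and in PaTu 8988T it did not pass (-0.05).

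In ERAD, which returns misfolded proteins to the cytosol for degradation, HERPUD1 rose while the mannosidase-like EDEM1 fell. HERPUD1 (chr16:56932048-56944863, plus strand), a membrane component of the HRD1 complex, measured 12.8, 14.1 and 13.1 FPKM in PANC-1 controls and 17.2, 16.9 and 15.6 in knockdown. It measured 12, 12.9 and 13.0 against 22.6, 23.0 and 22.9 in MIA PaCa-2, and 27.7, 28.4 and 27.9 against 39.1, 42.2 and 42.0 in PaTu 8988T. All knockdown libraries were above all controls, and the log2FC was 0.31 (SE 0.05, adjusted p = 0.00054), 0.85 (SE 0.08, adjusted p = 0.000501) and 0.55 (SE 0.04, adjusted p = 1.67e-05).

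EDEM1 (chr3:5187646-5219957, plus strand), a known target of XBP1 that routes glycoproteins to ERAD, measured 17.7, 18.5 and 18.3 FPKM against 7.79, 7.76 and 8.18 in PANC-1. It measured 34.2, 35.1 and 35.1 against 26.9, 25 and 26.7 in PaTu 8988T. EDEM1 fell in both, with log2FC of -1.19 (SE 0.05, adjusted p = 8.76e-09) and -0.41 (SE 0.04, adjusted p = 9.33e-05). In MIA PaCa-2 the groups overlapped, at 6.92, 5.81 and 6.65 against 5.69, 6.18 and 5.54 (-0.15, adjusted p = 0.30), and EDEM1 passed only without control replicate 2 (-0.22, adjusted p = 0.0101).

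Among the other ERAD genes, SEL1L, the scaffold of the HRD1 ligase, fell in PANC-1 (log2FC -0.64) and PaTu 8988T (-0.23), and in MIA PaCa-2 only without control replicate 2 (-0.33; -0.09 with it). SYVN1, the ligase HRD1 itself, fell in PANC-1 by 0.17 on the log2 scale with overlapping groups, a call lost without control replicate 2 or 3 or knockdown replicate 1 or 3 (adjusted p 0.0675 to 0.1), and passed as higher in PaTu 8988T only without knockdown replicate 1 (0.17). EDEM3 fell in PANC-1 (-0.30) and, without control replicate 2, in MIA PaCa-2 (-0.63; -0.24 with it). DERL1, a channel-forming membrane protein, measured 48.0, 49.7 and 50.8 FPKM against 43.2, 47.2 and 46.5 in PANC-1 and 11.2, 10.1 and 11.5 against 7.48, 7.37 and 7.37 in MIA PaCa-2. It measured 36.4, 35.9 and 35.9 against 39.6, 39.3 and 38.9 in PaTu 8988T. The DERL1 fall in MIA PaCa-2 was the larger (-0.56), while the calls in PANC-1 (-0.12) and PaTu 8988T (0.12) were each lost when 1 of several libraries was left out, with adjusted p up to 0.0756 and 0.0758. In PANC-1 these were control replicates 2 and 3 and knockdown replicate 1, and in PaTu 8988T the 3 controls and knockdown replicate 3. DERL2, its paralog, fell in MIA PaCa-2 alone among the tests (-0.34, adjusted p = 0.0445), a call lost without any single library other than control replicate 2 (adjusted p 0.104 to 0.172).

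OS9, the lectin that recognises trimmed glycoproteins, fell in PaTu 8988T by 0.10 on the log2 scale, a call lost without any library but knockdown replicate 2 (adjusted p 0.0596 to 0.186), and was not called elsewhere. EDEM2 was tested in PANC-1, where it did not pass (-0.07), and its FPKM in the other lines, 0.217 to 1.16 and 0.43 to 0.749, averaged below 1. In RefSeq (GRCh38.p14) EDEM2 (chr20:35115364-35147336) lies within the readthrough gene MMP24-AS1-EDEM2 (chr20:35115364-35278122), which has its own row in the table, so the reads of EDEM2 may be split and its level is uncertain. DERL3 was listed at 0 in every MIA PaCa-2 library and reached at most 0.189 FPKM elsewhere, and 77.0% of its exon bases lie opposite exons of SMARCB1.

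The 4 genes of the translocon, through which new proteins enter the ER, moved in both directions. SEC61B, a subunit of the channel, measured 68.8, 65.9 and 68.6 FPKM against 73.4, 71.9 and 74.2 in PANC-1. In PaTu 8988T it measured 98.4, 91.6 and 101 against 109, 120 and 115, and in MIA PaCa-2 91.5, 103 and 99.9 against 90.6, 90.7 and 91.6. SEC61B rose in PANC-1 (log2FC 0.11, adjusted p = 0.0055) and PaTu 8988T (0.24, adjusted p = 0.00439) and did not pass in MIA PaCa-2 (-0.11, adjusted p = 0.25).

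SEC61A1, the channel-forming subunit, measured 159, 184 and 160 FPKM against 114, 114 and 117 in MIA PaCa-2, a fall of 0.54 on the log2 scale (adjusted p = 0.00231; -0.47 without control replicate 2). It measured 124, 130 and 126 against 136, 138 and 134 in PANC-1, and 122, 123 and 125 against 134, 142 and 135 in PaTu 8988T. These were rises of 0.10 and 0.15 on the log2 scale. Under median-ratio scaling the PANC-1 rises of SEC61B and SEC61A1 were 0.06 and 0.05 and did not pass, with adjusted p of 0.0883 and 0.117. Of the translocon-associated subunits, SSR1 fell in PANC-1 (-0.27) and SSR3 rose in PaTu 8988T (0.21). In MIA PaCa-2 both passed as lower only without control replicate 2, SSR1 at -0.39 and SSR3 at -0.09 after a value of 0.14 with that library.

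SEC31A and SEC24D encode subunits of the COPII coat, which carries folded cargo out of the ER. SEC31A rose in PANC-1, from 35.2, 37.5 and 37.6 FPKM to 48.2, 48.4 and 47.0 (log2FC 0.38, adjusted p = 4.99e-06). In MIA PaCa-2 it measured 27.1, 22.2 and 27.4 against 31.1, 30.8 and 31.8 (0.29, adjusted p = 0.0558; 0.20 and 0.000382 without control replicate 2). In PaTu 8988T it measured 28.6, 28.4 and 28.8 against 28.2, 28.3 and 28.6 (-0.01, SE 0.04), so that no difference was detectable. SEC24D rose in MIA PaCa-2 (0.49, adjusted p = 0.0187; lost without knockdown replicate 1 or 3 at 0.0741 and 0.087) and did not pass in PANC-1 (0.11) or PaTu 8988T (0.04). WFS1, an ER membrane protein that is linked to Wolfram syndrome, fell in PANC-1 (-0.93) and MIA PaCa-2 (-0.64, adjusted p = 0.042, and -0.42 without control replicate 2). The latter call was lost without any 1 knockdown library (adjusted p 0.0871 to 0.131), and in PaTu 8988T WFS1 was at 0.02 with overlapping groups.

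The size of the knockdown effect differed between the lines in tests of the difference itself, for which the 18 libraries were fitted together over 9083 genes. Between PANC-1 and PaTu 8988T 19 of the 34 members (55.9%) differed, where 35.8% of all genes differed. Of these 19, 17 had the lower value in PANC-1, a direction that was not counted over all genes. Between PANC-1 and MIA PaCa-2 20 (58.8%) differed, against 43.4% of all genes. Between MIA PaCa-2 and PaTu 8988T 21 (61.8%) differed, against 52.9%. PDIA4 fell further in PANC-1 than in PaTu 8988T by 0.85 log2 units (SE 0.05) and ATF6 by 1.19 (SE 0.11), and HSPA5 fell further in MIA PaCa-2 than in PANC-1 by 0.28 (SE 0.04). For CALR no difference between PANC-1 and MIA PaCa-2 was found (0.15, SE 0.11, adjusted p = 0.299), and for XBP1 none between MIA PaCa-2 and PaTu 8988T (0.07, SE 0.06, adjusted p = 0.36).

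The wider set of 75 other ER genes, listed from general knowledge of folding, ERAD, translocation, glycosylation and ER-Golgi traffic, gave the following counts. In PANC-1 38 of 74 tested fell and 19 rose, or 51.4% and 25.7% beside the 32.2% and 40.1% of all genes. In MIA PaCa-2 23 of 72 fell and 7 rose, or 31.9% and 9.72% beside 21.7% and 18.7%. In PaTu 8988T 13 of 74 fell and 15 rose, or 17.6% and 20.3%, near the 18.5% and 20.9% of all genes. The 3 medians were -0.15, -0.04 and -0.01. Without control replicate 2, 36 fell and 21 rose in MIA PaCa-2, where 40% and 35.1% of all genes did.

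OSTC, a subunit of the oligosaccharyltransferase, fell in PANC-1 (log2FC -1.81, adjusted p = 6.75e-09) and MIA PaCa-2 (-1.54, adjusted p = 0.000815), and less in PaTu 8988T (-0.23, adjusted p = 0.0192). SAR1A, the GTPase that starts COPII coat assembly, fell in all 3 lines (-1.23, -1.64 and -0.46). The oxidases that recharge the disulfide isomerases followed them in part: ERO1B fell in PANC-1 (-1.72), and ERO1A fell in PANC-1 (-1.08) and PaTu 8988T (-0.86) and did not pass in MIA PaCa-2 (0.38). The largest rises without overlap were those of the ERAD enzyme gene UBE2J1 (0.71) and the signal peptidase gene SEC11C (0.64) in PANC-1, of FAM8A1 (0.86), a cofactor of HRD1, and of the transcription factor gene CREB3L2 (0.72) in MIA PaCa-2, and of the signal peptidase gene SPCS3 (0.41) and the ERAD gene SELENOS (0.31) in PaTu 8988T. In PaTu 8988T the second largest fall was that of CREB3L1, the gene of a transcription factor that is cleaved as ATF6 is (-0.54).

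Most genes of the ATF4 axis rose in each line. Of its 30 listed genes, 20 of 28 tested rose and 5 fell in PANC-1 by limma, beside 40.1% and 32.2% of all genes. In MIA PaCa-2 21 of 27 rose and 0 fell, beside 18.7% and 21.7%. In PaTu 8988T 19 of 24 rose and 2 fell, beside 20.9% and 18.5%. Medians of the list were 0.38, 0.96 and 0.49. The 0 in MIA PaCa-2 became 1 without control replicate 2. The falls in PANC-1 were those of SLC7A11 (log2FC -1.69), GDF15 (-0.30), DDIT4 (-0.27), SLC7A5 (-0.12) and SLC3A2 (-0.10). In PaTu 8988T DDIT4 (-1.03) and VLDLR (-0.51) fell. ATF4 measured 64.5, 64.7 and 63.7 FPKM against 88.4, 87.5 and 89.4 in PANC-1, 27.1, 31.0 and 27.4 against 50.1, 49.9 and 51.2 in MIA PaCa-2, and 35.2, 35.3 and 35.8 against 44.6, 45.9 and 43.9 in PaTu 8988T.

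DDIT3, the gene of the transcription factor CHOP, rose in the 3 lines by 0.84, 1.28 and 0.84 on the log2 scale. CHAC1, a glutathione-degrading enzyme, rose by 1.2, 1.44 and 2.76. TRIB3, a pseudokinase that feeds back on ATF4, rose in PANC-1 (1.03) and MIA PaCa-2 (1.80) and did not pass in PaTu 8988T (-0.08). ASNS, asparagine synthetase, rose in PANC-1 (0.44) and MIA PaCa-2 (1.96). In PaTu 8988T it measured 0.117, 0.0526 and 0.109 against 0.587, 0.588 and 0.46, too low to test.

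**Figure D3:**
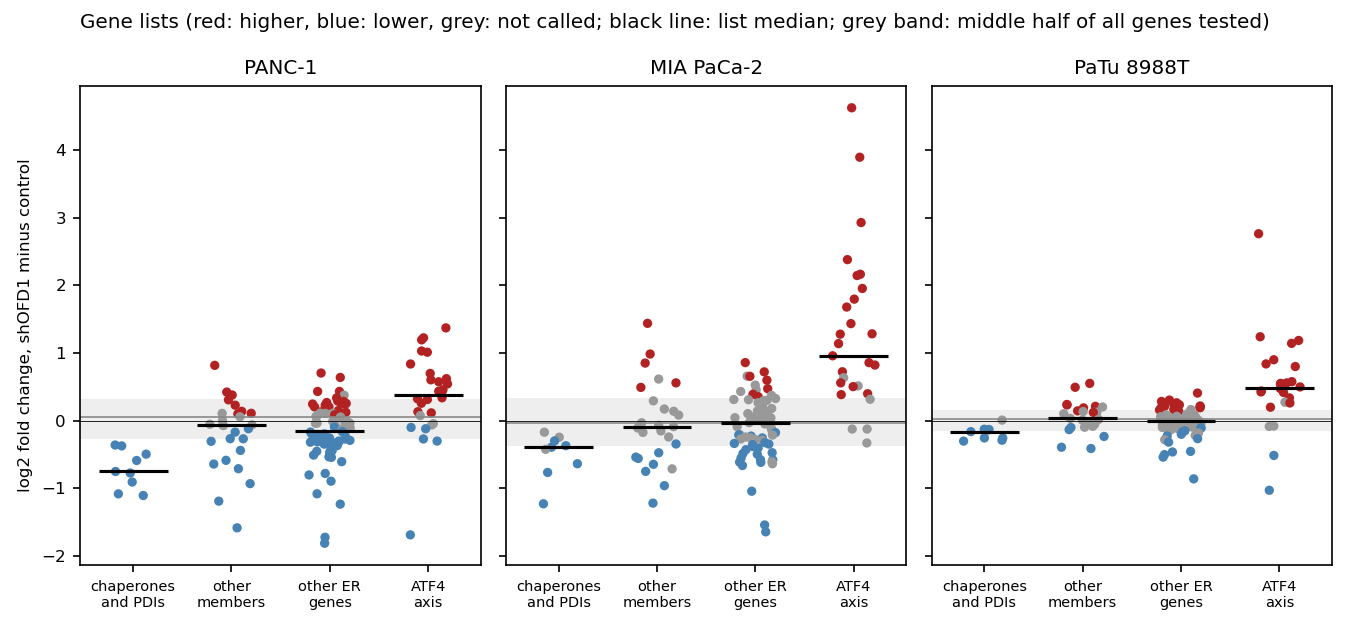
Log2 fold change (shOFD1 minus control) of the genes tested in each line, for the 9 chaperones and disulfide isomerases (PDIs), the other members, the other ER genes and the ATF4 axis; each point is a gene, coloured red, blue or grey as it rose, fell or did not pass, black lines are list medians, and the grey line and band are the median and middle 50% of all genes tested. The chaperone and PDI medians are -0.75, -0.39 and -0.16 and the ATF4 axis medians 0.38, 0.96 and 0.49.

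The same contrast was visible library by library. The median of the members, relative to the control mean, lay between -0.326 and -0.244 in PANC-1 knockdown libraries and between -0.005 and 0.007 in controls. In MIA PaCa-2 knockdown libraries it lay between -0.223 and -0.216, against -0.109 in control replicate 2 and 0.019 and 0.045 in the other controls. The ATF4 axis median of control replicate 2 was 0.321. It lay above the -0.179 and -0.129 of its fellows and below the 0.931 to 1.003 of the knockdown libraries. By these medians control replicate 2 was displaced toward the knockdown libraries on both lists. Single members departed either way. CANX lay toward the knockdown libraries (111 FPKM, control median 158) and CALR away from them (670 FPKM, control median 497). The part of this in the results was not tested. In PaTu 8988T the members' medians were close, at -0.025 to -0.014 in knockdown and -0.010 to 0.009 in controls.

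**Figure D4:**
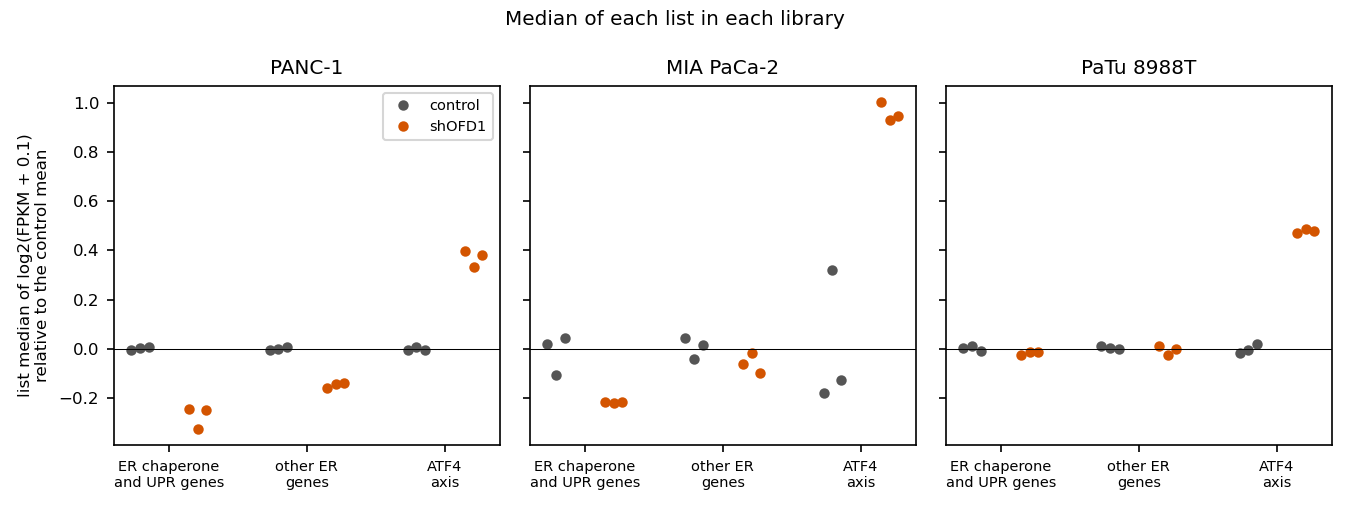
Median over each gene list of log2(FPKM + 0.1) relative to the control mean of the line, one point per library, grey for control and orange for shOFD1. Knockdown libraries lie below controls for the ER chaperone and unfolded protein response (UPR) genes and above them for the ATF4 axis in each line, with medians of the former no lower than -0.025 in PaTu 8988T.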

How the data were processed

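The deposited table holds FPKM for 18 libraries. According to the study's methods the authors mapped reads with HISAT2 and counted them with HTSeq-count before computing FPKM; the labels name another library kit (SMARTer) and extraction (RNeasy) than the methods (VAHTS, TRIzol), builds hg38, mm10 and GRCm38 are listed in the submitters' processing notes, and versions, annotation and strand setting are not given in the sources used here. Genes at 0 throughout a line were treated as not analysed there. Genes with a line mean of at least 1 FPKM were tested on log2(FPKM + 0.1) with limma 3.58.1 (R 4.3.3, trended variance, two-sided), p-values being adjusted by the Benjamini-Hochberg method over all genes of the line; FPKM are not counts, so no count model was used. An exact permutation test of 3 against 3 libraries cannot go below 0.1. Reads per library were recovered from the FPKM steps (tolerance 0.001) and run slightly low where all counts of a gene share a divisor. No per-sample column was left unused.

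The members, gene lists and promoter elements (7 were searched; ERSE without its last base and CARE with a further T were the others) were chosen with earlier results of these data known. Values in every library are given for the 4 sensors and transcription factors, HSPA5, HSP90B1, DNAJB9, HERPUD1 and SDF2L1. They are also given, in each line, for the members with the 3 largest rises and 3 largest falls that passed without overlap. Of the other ER genes, the 2 largest rises and 2 largest falls were named by the same rule. From the ATF4 axis, 5 genes (ATF4, DDIT3, ASNS, TRIB3 and CHAC1) were chosen by name and not by size. Its genes that fell are listed too. OFD1 checked the knockdown. Further genes with values in every library were chosen after their values were seen. In simulated data, log2 changes of 1 and 0.5 planted in 100 genes each were recovered for 92 and 72 genes (PANC-1), 57 and 13 (MIA PaCa-2) and 95 and 75 (PaTu 8988T). No other gene was changed there, whereas far more genes were called in the data. The adjusted p depends on the share of changed genes, so these rates do not give the sensitivity of the calls reported here. Promoter windows came from RefSeq (GRCh38.p14) and gene positions from GENCODE v29 (GRCh38). Alternatives were another pseudocount, filter, scaling or variance model, the replicate number as a block, the 2-fold threshold and leaving out each library.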

Additional observations from a re-analysis of the deposited data

Results flagged for a closer look

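Differences of the knockdown effect between lines were flagged where the test of the difference passed at an adjusted p below 0.05 (limma, 9083 genes). Of 34 members, 21 (61.8%) differed between MIA PaCa-2 and PaTu 8988T, 20 (58.8%) between PANC-1 and MIA PaCa-2 and 19 (55.9%) between PANC-1 and PaTu 8988T. Of all genes 52.9%, 43.4% and 35.8% differed in these pairs.

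Values are differences of log2 fold changes. In MIA PaCa-2 minus PaTu 8988T, the difference was -0.51 for HSPA5, -0.98 for DNAJB11, -0.51 for PDIA4, -0.68 for SEC61A1, -1.07 for CALR, -0.68 for DERL1, -1.17 for CRELD2, -0.57 for ATF6, -0.35 for SEC61B, -0.72 for SDF2L1, -0.40 for HYOU1, -0.48 for DERL2, -0.66 for WFS1, -0.34 for MANF and -0.24 for PDIA3. It was positive for DNAJB9 (1.24), DNAJC10 (0.67), SEC24D (0.46), HERPUD1 (0.30), SEC31A (0.31) and EDEM1 (0.26).

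In PANC-1 minus MIA PaCa-2, the difference was -1.04 for EDEM1, -0.54 for HERPUD1, -0.34 for PDIA4, -0.62 for ATF6, -1.02 for DNAJB9, -0.47 for HSP90B1, -0.79 for EIF2AK3, -0.34 for P4HB, -0.36 for HYOU1, -0.48 for CANX, -0.20 for PDIA6, -0.38 for SEC24D and -0.55 for SEL1L. It was positive for SEC61A1 (0.64), HSPA5 (0.28), DERL1 (0.44), DNAJB11 (0.48), XBP1 (0.26), CRELD2 (0.78) and SEC61B (0.22).

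In PANC-1 minus PaTu 8988T, the difference was -0.85 for PDIA4, -1.19 for ATF6, -0.78 for EDEM1, -0.92 for CALR, -0.23 for HSPA5, -0.48 for HSP90B1, -0.50 for DNAJB11, -0.63 for EIF2AK3, -0.24 for DERL1, -0.29 for P4HB, -0.24 for HERPUD1, -0.76 for HYOU1, -0.95 for WFS1, -0.65 for CANX, -0.36 for PDIA3, -0.45 for MANF and -0.23 for PDIA6. It was positive for XBP1 (0.32) and SEC31A (0.39). Every comparison with MIA PaCa-2 includes its control replicate 2. The joint fit pools the spread of all libraries for each gene. The tests of PANC-1 minus PaTu 8988T therefore carry the spread of that control too.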

How the results depend on the processing

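With the 2-fold threshold, members higher and lower numbered 0 and 4 (PANC-1), 1 and 2 (MIA PaCa-2) and 0 and 0 (PaTu 8988T), ATF4 axis genes 5 and 1, 13 and 0, and 4 and 1, and other ER genes 0 and 4, 0 and 3, and 0 and 0. Median-ratio scaling left 5 members higher in PANC-1 and gave member medians of -0.318, -0.212 and -0.054 in PANC-1, MIA PaCa-2 and PaTu 8988T. The MIA PaCa-2 median was -0.212 with a pseudocount of 1 and -0.298 with a filter at 5 FPKM, and the PaTu 8988T median -0.013 with that filter and -0.051 with none. The 5 FPKM filter left 1 ATF4 axis gene lower in PaTu 8988T.

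Leaving out 1 library at a time gave 7 to 8 members higher and 19 to 21 lower (PANC-1), 4 to 7 and 9 to 23 (MIA PaCa-2), and 7 to 10 and 10 to 13 (PaTu 8988T). The 23 came without control replicate 2 of MIA PaCa-2, where 40% of all genes fell. The 9 came without any single one of its knockdown replicates, where 12.2% to 12.5% of all genes fell. Member medians ranged from -0.289 to -0.235, from -0.333 to -0.186 and from -0.037 to -0.005. ATF4 axis genes higher ranged from 19 to 21, 17 to 24 and 19 to 20, and those lower from 4 to 6, 0 to 1 and 2 to 2. Other ER genes higher ranged from 18 to 21, 2 to 21 and 12 to 16, and those lower from 37 to 39, 9 to 36 and 10 to 15. Members differing between lines ranged from 18 to 27 (PANC-1 minus MIA PaCa-2), 17 to 26 (PANC-1 minus PaTu 8988T) and 19 to 29 (MIA PaCa-2 minus PaTu 8988T). SSR3 in MIA PaCa-2 ranged from -0.088, a reversal without control replicate 2, to 0.255. The cause of these shifts was not tested.

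With the replicate number as a block, 14 other ER genes were lower in MIA PaCa-2, and it moved no other count by over 1.5 times; it ended the calls of HSP90B1, DERL2 and WFS1 in MIA PaCa-2 and OS9 in PaTu 8988T, and DNAJB9 passed in PaTu 8988T. Deviations of control and knockdown libraries from their group means correlated between -0.111 and 0.13 for the same replicate number. For different numbers they correlated between -0.231 and 0.226, so the numbers were not taken to pair samples. With no filter on low values, calls ended for SYVN1 in PANC-1, HSP90B1, DERL2 and WFS1 in MIA PaCa-2 and OS9 in PaTu 8988T, and with no variance trend for SYVN1 and DERL1 in PANC-1, HSP90B1 in MIA PaCa-2 and OS9 and MANF in PaTu 8988T. Median-ratio scaling ended those of DNAJC10, SEC61B and SEC61A1 in PANC-1, HSP90B1, DERL2 and WFS1 in MIA PaCa-2 and DERL1 in PaTu 8988T, and SSR3 in PANC-1 and SEC31A in MIA PaCa-2 then passed.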
